A study of Drosophila melanogaster with 4 samples.

Results

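The basement membrane components described here are the 9 Drosophila genes LanA, LanB1, LanB2, wb, vkg, Col4a1, SPARC, trol and Ndg. Earlier results of these data were known when the genes were chosen, though no measured value entered the rule. They were taken by name, as the probes whose single gene symbol in the platform annotation is one of the 9. The current symbol was found through the gene identifier. The rule gave 9 of the 12236 genes with a probe of their own, and 11 of the 15744 probes on the array. There were 3 probes for trol and 1 for each other gene, and all 9 annotation symbols were already the current ones. The label could be checked only through these symbols, since a ratio of precipitates holds no level in a tissue.

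A basement membrane is the thin sheet of extracellular matrix that lines the basal side of epithelia, wraps muscles, tracheae, fat body and the nervous system, and in the larva also surrounds the eye-antennal disc. Laminin trimers first form a network at the cell surface, and type IV collagen is added as a second network that gives the sheet its strength, with perlecan and nidogen between them. In the fly larva the fat body and the hemocytes, the circulating blood cells, secrete much of the collagen and of the collagen-binding protein SPARC.

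The samples were RNA that an anti-GFP antibody brought down from larvae expressing GFP-B52 or, as the control, GFP-NLS, green fluorescent protein sent to the nucleus. Both transgenes were put under GMR, a driver active in the developing eye, and B52 is a splicing factor of the SR protein class. Each extract pooled dissected anterior parts from 600 larvae in the third instar, so it held many cell types beside the eye disc, and the labels give neither age in hours nor sex. Both precipitates were hybridised together on two-colour arrays, in 2 replicates with both dye orientations each, which gave 4 arrays, and the series asked which messenger RNAs B52 may bind in the developing eye. Nothing in the labels says that replicate 2 came from other larvae, so a p-value reflects the variation among these samples alone, and that variation may be technical. The precision of each value is limited by having only 4 arrays.

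Each array reports a log ratio between its channels, with no stated log base or direction. An array is named below by the dye that labelled the GFP-B52 precipitate, and values of a replicate are given in the order Cy5, Cy3. Cy5 arrays had their sign changed, on the reading that the table holds dye over dye, so that both orientations compare the precipitates the same way round. Signs are anchored on probe 13309 of B52 itself, which was positive throughout, at 0.451 and 0.411 log units in replicate 1 and at 0.510 and 0.502 in replicate 2. Positive is therefore termed the B52-probe side, without knowledge of whether the GFP-B52 or the GFP-NLS precipitate was the higher there. The other 4 B52 probes had means between -0.33 and 0.13. After turning, the 2 orientations of replicate 1 correlated across probes at r = -0.608 and those of replicate 2 at r = 0.167. As deposited, these were 0.608 and -0.167. If the table holds dye over dye, dye outweighed the comparison in replicate 1. That reading was not tested, and what is called dye below rests on it. Probes give ratios and not levels, and the level of no gene was set against that of another.

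Of the 10 member probes with a value on all 4 arrays, SPARC stood farthest to the B52-probe side and LanA farthest to the opposite side, and these were the only member probes that kept 1 direction on all 4 arrays. Neither passed the test over all probes. The test was limma on the 2 replicate means with Benjamini-Hochberg adjustment, and it called 0 of 10 member probes and 0 of all 13963 probes (0%) at an adjusted p under 0.05. At an unadjusted p under 0.05 it counted 2 of the 10, SPARC and LanA, against 12.9% of all probes. One direction on all 4 arrays was kept by 2 of the 10, against 14% of all probes. This was 1 member on the B52-probe side, against 5.96% of all probes, and 1 on the opposite side, against 8.04%. No member probe stood 0.301 log units, the log10 of 2, from 0 on every array, as 0.143% of all probes did. At a distance of 0.1 the same rule counted SPARC and LanA, against 3.02% of all probes.

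**Figure D1:**
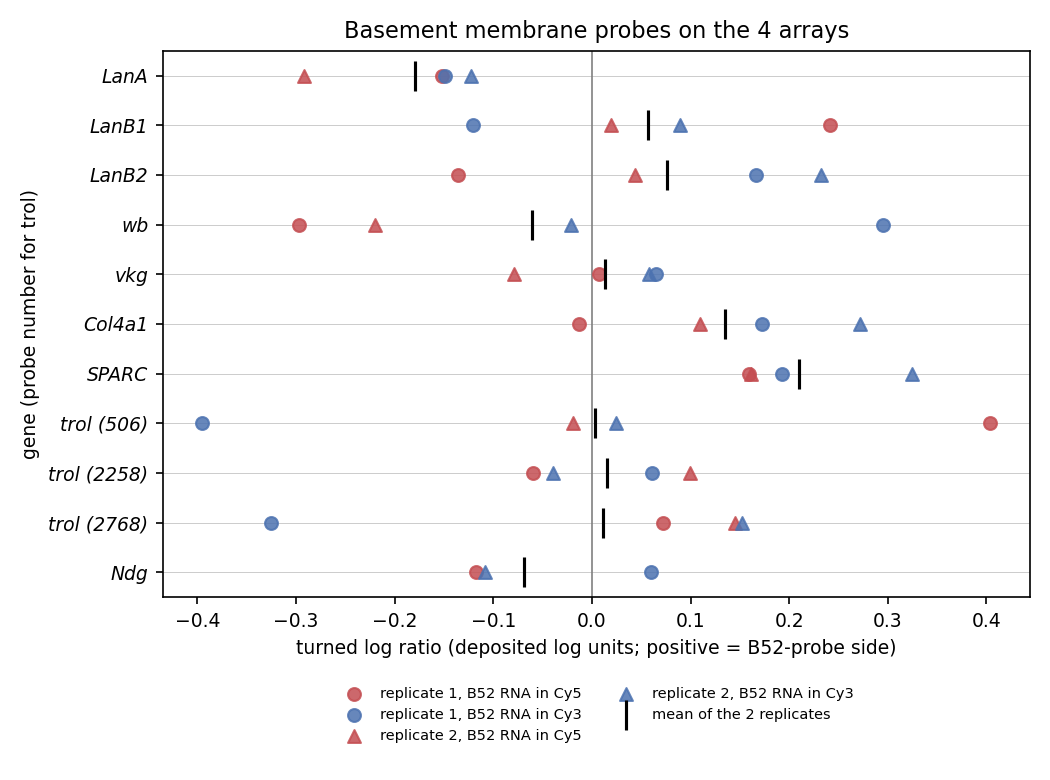
Turned log ratio of each of the 11 basement membrane probes on each array, in deposited log units, with positive values on the B52-probe side. Colours are dye orientations, shapes are replicates and the bar is the mean of the 2 replicates; SPARC lies at 0.159 or above and LanA at -0.123 or below on all 4 arrays, and the other probes have values on both sides of 0.

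SPARC, CG6378 on chromosome arm 3R from 26869238 to 26871995 in assembly Release 6, encodes a secreted glycoprotein that binds type IV collagen. It lay at 0.159 and 0.193 log units in replicate 1 and at 0.161 and 0.325 in replicate 2. All 4 values were thus on the B52-probe side, and the Cy3 array of replicate 2 was the highest. The mean was 0.21 ± 0.05 log units (SD, n = 2; adjusted p = 0.289 in limma), or 1.62-fold if the logs are log10 and 1.16-fold if they are log2. Of all tested probes, 93.5% lay as close to 0 or closer. The dye pattern, the mean of the values without turning, was 0.05 ± 0.05 log units at this probe and made up 5.05% of its mean square over the arrays, while the comparison took 90.5%. In a fit of the 4 arrays that took the replicate as a random block, SPARC had an adjusted p of 0.0411 in limma. It was the only one of the 10 tested member probes to pass there, where 447 of all 13963 probes passed. That fit estimated the within-replicate correlation at -0.66, and a negative value shrinks standard errors below those of independent arrays.

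The type IV collagen chains are encoded by Col4a1 and vkg, which join in 1 trimer. The genes lie side by side on chromosome arm 2L, vkg (CG16858) from 5012144 to 5028191 and Col4a1 (CG4145) from 5029609 to 5037279 in Release 6, with 1417 bases between them. Col4a1 lay at -0.013 and 0.172 log units in replicate 1, Cy5 and then Cy3, and at 0.110 and 0.272 in replicate 2. It was on the B52-probe side on 3 of 4 arrays, and higher on the Cy3 array in both replicates. Its mean was 0.14 ± 0.08 (SD, n = 2; adjusted p = 0.387 in limma), with 63.2% of the mean square in the comparison and 26% in the dye pattern. Without the Cy3 array of replicate 1 the mean was 0.089.

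For vkg the values were 0.007 and 0.065 log units in replicate 1 and -0.079 and 0.058 in replicate 2. They stayed within 0.08 of 0 and straddled it, with a mean of 0.013 ± 0.033 (SD, n = 2; adjusted p = 0.929 in limma). Without the Cy3 arrays of replicates 1 and 2 in turn, the mean was -0.00175 and -0.0215. Col4a1 minus vkg was -0.02, 0.107, 0.189 and 0.214 on the 4 arrays, above 0 on 3 of them, with a mean of 0.12 ± 0.11 (SD, n = 2). The difference between these neighbouring genes was about as large as its spread between replicates, and it was not tested.

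Laminins of the fly contain the beta chain encoded by LanB1, the gamma chain encoded by LanB2 and 1 of 2 alpha chains, encoded by LanA or by wb (wing blister). LanA, CG10236 on 3L from 6203831 to 6218022 in Release 6, lay at -0.152 and -0.149 log units in replicate 1, Cy5 and then Cy3, and at -0.292 and -0.123 in replicate 2. All 4 values were on the side opposite to B52 probe 13309, and the Cy5 array of replicate 2 was the lowest. The mean was -0.18 ± 0.04 (SD, n = 2; adjusted p = 0.298 in limma), or 1.51-fold for log10 and 1.13-fold for log2. The comparison took 88% of its mean square and the dye pattern 5.08%.

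The partner chains of LanA had means on the B52-probe side, with array values on both sides of 0. LanB1, CG7123 on 2L from 7811438 to 7820771, lay at 0.241 and -0.121 log units in replicate 1 and at 0.019 and 0.089 in replicate 2. Both extremes came from replicate 1 and lay on opposite sides of 0, so the small SD of its mean, 0.057 ± 0.004 (SD, n = 2; adjusted p = 0.619 in limma), hides an array range wider than that of SPARC or LanA. Without the Cy5 array of replicate 1 the LanB1 mean was -0.0335. LanB2, CG3322 on 3L from 9614914 to 9623980, lay at -0.136 and 0.166 in replicate 1 and at 0.044 and 0.232 in replicate 2, with a mean of 0.08 ± 0.09 (SD, n = 2; adjusted p = 0.578 in limma). It was on the B52-probe side on 3 of 4 arrays, and its mean ran from 0.001 without the Cy3 array of replicate 1 to 0.152 without its Cy5 array.

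On every array LanB1 and LanB2 both lay above LanA. LanB1 minus LanA ranged from 0.028 to 0.393 log units with a mean of 0.24 ± 0.04, and LanB2 minus LanA ranged from 0.016 to 0.355 with a mean of 0.26 ± 0.13 (SD, n = 2 each). These differences are descriptions with no test. LanA had the lowest mean of the tested members, so that other members lay above it is partly built in. The smallest LanB1 difference and the smallest LanB2 difference came from opposite dye orientations of replicate 1.

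The alpha chain gene wb, CG42677 on 2L from 14263027 to 14328262, lay at -0.297 and 0.295 log units in replicate 1 and at -0.220 and -0.021 in replicate 2. The orientations of replicate 1 thus gave values of nearly the same size on opposite sides, and its mean was -0.061 ± 0.084 (SD, n = 2; adjusted p = 0.657 in limma). The dye pattern at this probe was 0.2 ± 0.14 log units and took 69.8% of the mean square, and 85.9% of all probes had a dye pattern as small or smaller. Without the Cy5 array of replicate 1 the mean of wb was 0.0873, and without its Cy3 array it was -0.209. LanA lay above wb on 1 of 4 arrays, so the order of both alpha chain genes depended on the array.

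Perlecan, the large heparan sulphate proteoglycan that spaces the laminin and collagen networks, is encoded by trol, CG33950 on the X chromosome from 2470460 to 2545427. It was the member with several probes, and they differed from each other on single arrays. Probe 506 lay at 0.404 and -0.395 log units in replicate 1, the widest range of any member, and at -0.019 and 0.024 in replicate 2. Probe 2768 lay at 0.072 and -0.325 in replicate 1 and at 0.145 and 0.152 in replicate 2. Probe 2258 stayed between -0.06 and 0.099 on the 4 arrays. Where in the long gene each probe lies was not analysed here.

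The means of the trol probes were all close to 0, at 0.0035 ± 0.0014, 0.015 ± 0.021 and 0.011 ± 0.194 for probes 506, 2258 and 2768 (SD, n = 2), with adjusted p in limma between 0.91 and 0.978. For probe 506 the comparison took 0.0153% of the mean square, so its mean and its small SD come from large opposite values that cancel. Without the Cy5 array of replicate 1 the means of probes 506 and 2768 were -0.196 and -0.0883, and without its Cy3 array the mean of probe 2258 was -0.015. Without the Cy5 and then the Cy3 array of replicate 2, probe 2258 lay at -0.0193 and probe 506 at -0.00725. The mean over the 3 probes was 0.0099 ± 0.0713 (SD, n = 2; in limma over genes, adjusted p = 0.95), and without the Cy5 array of replicate 1 it was -0.0797.

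Nidogen, which binds both laminin and type IV collagen, is encoded by Ndg, CG12908 on 2R from 10313891 to 10322104. Its probe had no value on the Cy5 array of replicate 2, so it did not enter the test over probes with 4 values. The others were -0.118 and 0.060 log units in replicate 1 and -0.108 in replicate 2, below 0 on 2 of 3 arrays. With the single array standing for replicate 2, where dye and comparison are not separated, the mean was -0.069 ± 0.056 (SD, n = 2), and tested with all probes that had at least 1 array per replicate it had an adjusted p of 0.632 in limma.

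**Figure D2:**
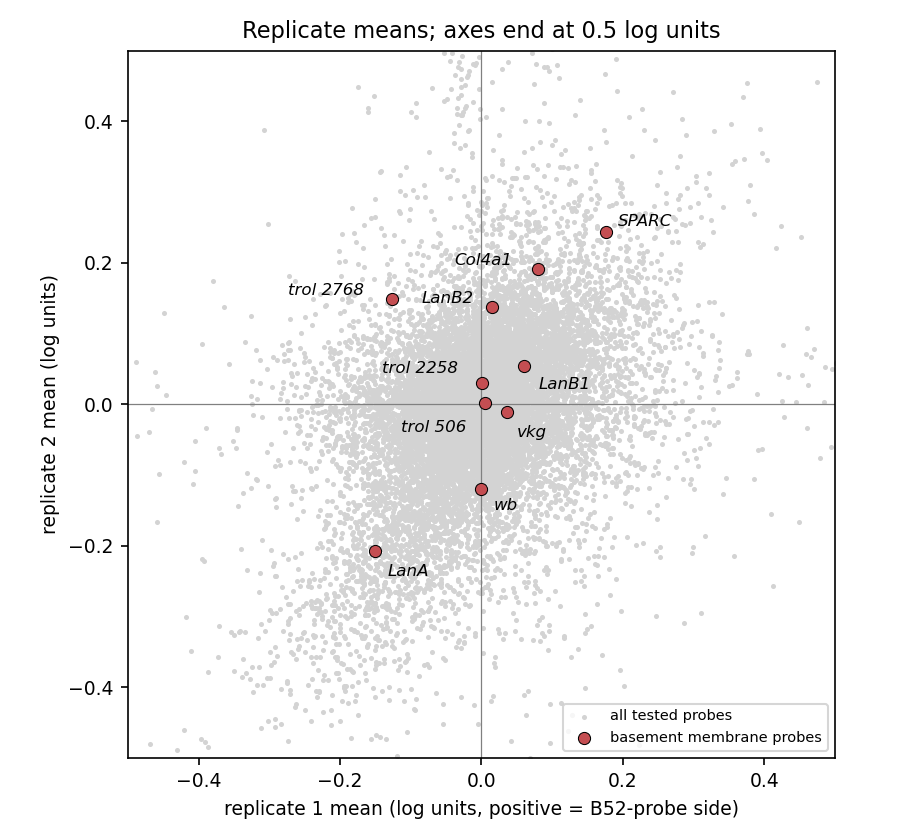
Mean of the 2 dye orientations in replicate 1 (horizontal) and replicate 2 (vertical), in log units with the B52-probe side positive, for the 10 tested basement membrane probes over all 13963 tested probes; points past 0.5 are not drawn. SPARC and Col4a1 lie on the B52-probe side and LanA on the opposite side in both replicates, while trol probe 2768 is at -0.127 in replicate 1 and 0.149 in replicate 2.

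Counted by probe, the members as a group were not set apart by size. Their median distance from 0 was 0.0589 log units over 10 probes, against 0.055 over all tested probes. Of these 10, 3 are trol probes with means close to 0, so that gene weighs more than the others in these counts by probe. By gene, the distance from 0 ranked from 538 for SPARC to 9974 for trol among 11173 genes. The spread between replicates exceeded the mean at 5 of the 10, against 49.9% of all probes. The dye pattern exceeded the comparison in size at 6 of the 10, against 61.3%. The median dye pattern of the members was 0.0799 log units in size, against 0.0825 over all probes. No member passed the test of the dye pattern in limma, in which 0.659% of all probes did, and the adjusted p of the members lay between 0.538 and 0.995. At an unadjusted p under 0.05 the dye test counted 0 of the 10, against 9.94% of all probes. Only LanA, Col4a1 and SPARC had most of their mean square in the comparison, as the plot of shares shows. Pooled over all tested probes, the comparison took 22.6% of the mean square and dye 40.2%. How many of all probes had most of theirs in the comparison was not counted. The pooled share does not give that number, so whether the members differ from all probes in this is not known here.

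**Figure D3:**
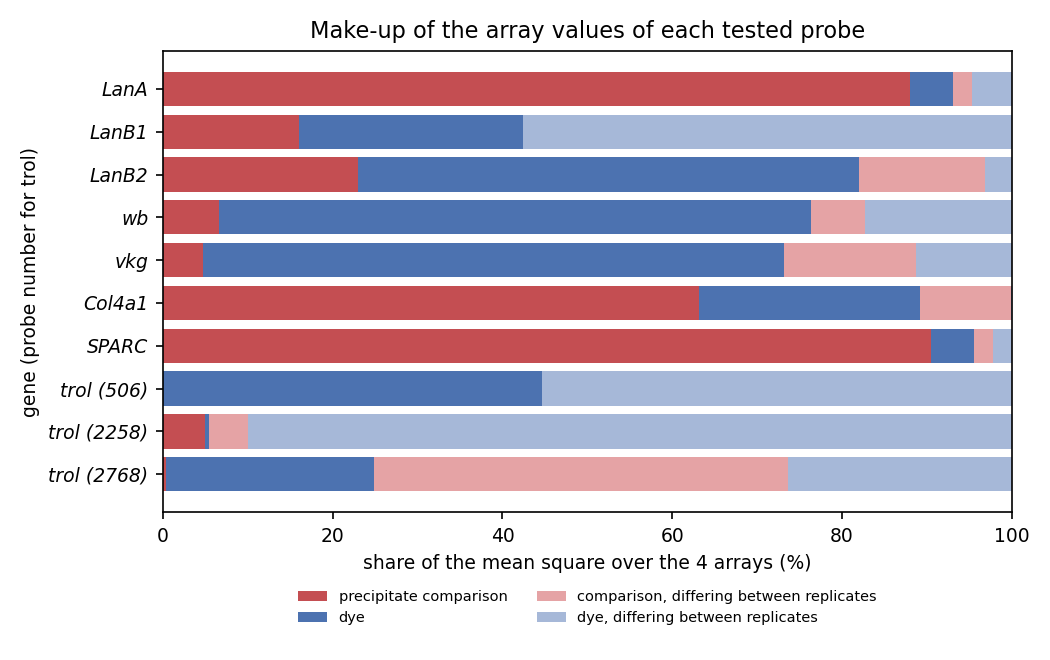
Share of the mean square over the 4 arrays, in percent, taken by the precipitate comparison, by dye, and by the difference of each between replicates, for the 10 tested basement membrane probes. The comparison takes 88% for LanA, 63.2% for Col4a1 and 90.5% for SPARC, and at most 23% for the other 7.

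Of the 8 member genes measured on all arrays, 6 had a mean on the B52-probe side, against 46% of all genes, and 2 had one on the opposite side, against 53.9%. The median of the 8 was 0.035 log units, against -0.0073 over all 11173 genes. This median was 0.0255 in replicate 1 alone and 0.057 in replicate 2 alone. Without the Cy5 array of replicate 1 it was 0.0573 and without that of replicate 2 it was 0.0608, while with Ndg counted from its 3 arrays it was 0.013. Over genes in place of probes, limma called 0 of the 8, with the smallest adjusted p at 0.14 for SPARC, and 0.00895% of all genes. At an unadjusted p under 0.05 it counted 3 of the 8, against 15.7%. SPARC lay above LanA by 0.311, 0.342, 0.453 and 0.448 log units on the 4 arrays. SPARC minus LanA had a mean of 0.39 ± 0.09 (SD, n = 2), and as the pair was picked for its place at both ends, this is a description.

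Cells bind the basement membrane through integrins and dystroglycan. Of 8 such receptor genes 6 were measured on all arrays, with a median of 0.001 log units. Of these, 3 lay on the B52-probe side, against 46% of all genes, 1 at 0 and 2 on the opposite side, against 53.9%. The laminin-binding integrin alpha subunit gene mew lay at -0.157 and -0.125 in replicate 1 and at -0.430 and -0.255 in replicate 2. All 4 values were on the same side as those of LanA, with a mean of -0.24 ± 0.14 (SD, n = 2; in limma over genes, adjusted p = 0.158). The beta subunit gene mys, whose protein pairs with that of mew, had a mean of 0.022 ± 0.033 (SD, n = 2; in limma over genes, adjusted p = 0.877). Without the Cy3 arrays of replicates 1 and 2 it was -0.0355 and -0.077.

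Of 17 genes for assembly, secretion and remodelling of the matrix 16 were measured. Of these, 9 lay on the B52-probe side, against 46% of all genes, and 7 on the opposite side, against 53.9%. Their median was 0.016 log units, or -0.011 without the Cy3 array of replicate 1. They were led by the papilin gene Ppn at 0.15 ± 0.15, the peroxidasin gene Pxn, whose enzyme cross-links collagen IV, at 0.12 ± 0.07, Crag, needed for polarised delivery of basement membrane proteins, at 0.11 ± 0.03, and tiggrin (Tig), an integrin ligand, at 0.1 ± 0.0004 (SD, n = 2). On single arrays Tig ran from 0.054 to 0.152, which its SD of replicate means hides. No gene of the list passed in limma over genes, where its smallest adjusted p was 0.314. Without the Cy5 array of replicate 1 the mean of Ppn was 0.0483 and that of Pxn 0.046, and without its Cy3 array they were 0.255 and 0.191. Ppn lay at 0.258 without the Cy5 array of replicate 2 and at 0.0453 without its Cy3 array, where Crag lay at 0.0553. With probes counted that lacked a value on an array, Pxn lay at 0.033.

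Of 12 genes for heparan sulphate synthesis and other proteoglycans 10 were measured, with a median of -0.107 log units. Of these, 7 lay on the opposite side, against 53.9% of all genes. The heparan sulphate polymerase gene ttv lay at -0.17 ± 0.004 and the glypican gene dlp at -0.16 ± 0.05 (SD, n = 2). Each was below 0 on all 4 arrays, ttv from -0.285 to -0.053 and dlp from -0.328 to -0.012. Their adjusted p over genes in limma was 0.175 and 0.194. The mean of ttv was -0.108 and that of dlp -0.103 without the Cy5 array of replicate 1, and dlp lay at -0.093 without that of replicate 2. The median of this list was -0.0428 in replicate 1 alone and -0.104 in replicate 2 alone. Of 12 integrin adhesion genes 10 were measured, with 5 on either side and a median of -0.016. Focal adhesion kinase (Fak) at -0.12 ± 0.08 and the kindlin gene Fit2 at -0.1 ± 0.05 (SD, n = 2) led it, and the smallest adjusted p was 0.325 over genes in limma. Fit2 lay at -0.187 without the Cy5 array of replicate 1, at -0.0103 without its Cy3 array and at -0.0545 without the Cy3 array of replicate 2. Fak lay at -0.063 in replicate 2 alone.

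**Figure D4:**
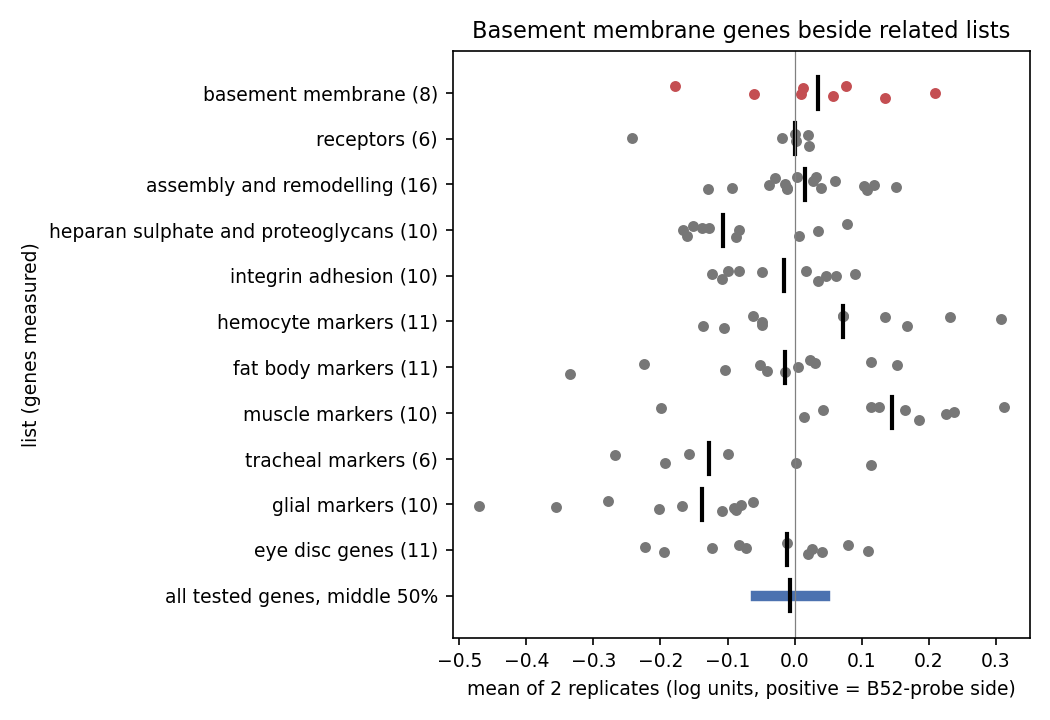
Gene means of the 2 replicates, in log units with the B52-probe side positive, for the basement membrane genes and related lists; each point is a gene, the black bar is the list's median, and the blue bar is the middle 50% of all tested genes. The basement membrane genes spread from -0.18 to 0.21 around a median of 0.035, and the number of genes measured stands beside each list.

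Markers of cells that make or carry basement membrane were read beside the members, as the extracts held many tissues. The 11 hemocyte markers had a median of 0.072 log units, with 6 on the B52-probe side, and a range from -0.14 to 0.31. Without the Cy3 array of replicate 1 their median was -0.026, and in replicate 1 alone it was 0.0285. Of 14 fat body markers 11 were measured, with 5 on that side, and the median was -0.014. The oenocyte and fat body cytochrome gene Cyp4g1 stood at -0.34 ± 0.08 and the fat body protein gene Fbp2 at 0.15 ± 0.03 (SD, n = 2), so the fat body list held genes on both sides. SPARC and Col4a1 lay on the same side as 6 of the 11 hemocyte markers and 5 of the 11 fat body markers. Of all genes, 46% had a mean on that side, so these counts are near the share over all genes. The part of either cell type in these values was not tested.

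Of 13 muscle markers 10 were measured, 9 of them on the B52-probe side, against 46% of all genes. Their median was 0.15 log units, or 0.072 without the Cy5 array of replicate 1. They were led by the muscle LIM protein gene Mlp84B at 0.31 ± 0.01 and the troponin C gene TpnC73F at 0.23 ± 0.03 (SD, n = 2). On single arrays Mlp84B ran from 0.108 to 0.504 and TpnC73F from 0.123 to 0.283, which the SD of replicate means hides. The muscle marker on the opposite side was Act87E, at -0.2 ± 0.21 (SD, n = 2), and it lay below 0 on all 4 arrays. All 10 measured glial markers, of 11 listed, had a mean on the opposite side, where LanA lay, against 53.9% of all genes. The glial median was -0.14, with a range from -0.47 to -0.063. Of 7 tracheal markers 6 were measured, with 4 on that side, and the median was -0.13, or -0.0037 without the Cy3 array of replicate 1. The 11 eye disc genes were divided, with 5 on the B52-probe side and a median of -0.012. No gene of these marker lists passed in limma over genes, where the smallest adjusted p was 0.0772, and the part of muscle, glia or tracheae in the members' values was not tested.

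The genes whose array values were most like those of the outermost members were found by root mean square distance over the 4 turned arrays. For SPARC these were Pgm1, NHP2 and CG15818, at distances of 0.0232, 0.0299 and 0.0326 log units, where the median distance over all genes was 0.274. Pgm1, for instance, lay at 0.160 and 0.179 in replicate 1 and at 0.175 and 0.283 in replicate 2. For LanA they were betaCOP, CG11755 and CG32695, at 0.0141, 0.0293 and 0.0294, where the median distance was 0.241. No other basement membrane gene was among them. With so few genes taken out of 11173, that absence says nothing on whether the members vary together.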

How the data were processed

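For 15744 probes the authors deposited, in 1 table, the log ratio between both channels, neither a count nor an intensity. For its log base, direction, background correction and normalization, the method is not given in the sources used here. Per array the deposited median was 0.002 to 0.006, and whether centring had been done before deposit is not known here. The 16 cells of -10000 were treated as missing, as were the 350 to 955 empty cells per array. Names came from the supplied platform annotation, where 13147 probes had 1 gene symbol, 99 several and 2498 none here, and 12519 were matched to the gene table of assembly Release 6.

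Each array was centred on its median, turned as described, and averaged over the dye orientations of a replicate. Probes with values on 4 arrays were tested against 0 with lmFit and eBayes of limma 3.58.1 (R 4.3.3), adjusted over all probes at 0.05. The fit was tested on simulated data. Gene values are means over probes, tested over all genes. Members and lists were chosen with earlier results of these data known. Up to 4 genes per list are named by the size of the moderated statistic, and AdamTS-A and Act87E as the lowest means of their lists. Alternatives changed centring, scaling, missing values, arrays, replicates, dye term, block, moderation, feature and turning. No probe or promoter sequence was used here.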

Additional observations from a re-analysis of the deposited data

How the results depend on the processing

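Changed one at a time, the alternatives left 0 member probes past the threshold of 0.05 in limma, except the replicate number as a random block (replicate block), under which 1 member probe passed, SPARC. Over all 13963 probes that block gave 447 calls, 118 positive and 329 negative. Over genes, mew, ttv, Cyp4g1, Mlp84B and TpnC73F passed at -0.24, -0.17, -0.34, 0.31 and 0.23. Robust moderation and genes as features gave 1 call each, a negative one. Without turning, 92 probes passed, 34 and 58 by sign. LanA then lay at 0.043, LanB1 at -0.073, wb at 0.198, the trol probes 506, 2258 and 2768 at -0.189, -0.00425 and -0.0975 and their mean at -0.0969. Pxn lay at -0.0978, Tig at -0.0183, TpnC73F at -0.057, mew at 0.0518, ttv at 0.0713, dlp at 0.126, Fak at 0.0328 and Cyp4g1 at 0.032, so the sides named above hold for turned arrays only. Scaled to a common median absolute deviation, trol probe 506 lay at -0.00644.

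With 1 array left out, a replicate holds a single dye orientation, and the probes are those with a value on all 4 arrays. With 1 array or 1 replicate left out, means spanned both sides of 0 for LanB1, from -0.0335 to 0.147, wb, from -0.209 to 0.0873, and vkg, from -0.0215 to 0.047. So did trol probe 506, from -0.196 to 0.203, probe 2258, from -0.0193 to 0.0498, probe 2768, from -0.127 to 0.149, and the trol mean, from -0.0797 to 0.0995. Beyond the members this held for mys, from -0.077 to 0.12, while Ppn stayed between 0.0453 and 0.258, Pxn between 0.046 and 0.191 and Fit2 between -0.187 and -0.0103. SPARC and LanA kept their side without each array, at 0.169 to 0.251 and -0.221 to -0.137. Without a whole replicate no test could be made. The median of the member genes lay between 0.0234 and 0.0608 with 1 array or replicate left out. With 1 array or replicate left out, list medians spanned -0.06 to 0.0225 for receptors, -0.025 to 0.0058 for adhesion, -0.036 to 0.013 for fat body and -0.0795 to 0.024 for eye disc genes.

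Probes at least a set distance from 0 numbered 20 at 0.301, 422 at 0.1, of which 2 were members, 103 at 0.2, 7 with scaled arrays and 40 without turning. The dye pattern gave 92 calls, and 0 with scaled arrays, with missing values allowed or with the block. Signal over background is not known here, so dim probes could not be told from bright ones.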
